A study of Mus musculus with 60 samples.

Results

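The comparison described here is between 4 libraries of GFP-high and 4 libraries of GFP-negative epithelial cells from the proximal small intestine, 8 of the 60 libraries of the study, chosen by their labels and described over all genes. The mice were 8 weeks old and carried an Lgr5-2A-eGFP allele, in which the green fluorescent protein eGFP is made together with the Lgr5 protein. The GFP-high, GFP-intermediate and GFP-negative cells all came from mice with this allele, so every group compared carries it. The small intestine had been cut into 3 equal parts, crypts were released by chelation and dispersed with TrypLE, and at least 50000 cells per fraction were sorted for polyA RNA-seq. The middle and distal parts, each also with 4 GFP-high and 4 GFP-negative libraries, serve as the comparison where a difference of the proximal part was tested. The labels do not say whether the 4 libraries of a group came from separate mice. The p-values therefore measure the spread between libraries of a group, estimated jointly over all 15 groups of the study.

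The intestinal epithelium is renewed from stem cells at the crypt base, which express the R-spondin receptor Lgr5 and lie between Paneth cells. Their daughters divide as transit-amplifying cells, then become absorptive enterocytes or secretory goblet, enteroendocrine, tuft and Paneth cells, and most of these move up the villus and are shed at its tip. The proximal part includes the duodenum, where iron, calcium and much of the sugar, peptide and fat of a meal are taken up. Because eGFP follows Lgr5, the height of the GFP signal orders cells by Lgr5 expression, and the GFP-negative gate takes cells without that signal, whatever their type.

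Total counts ran from 58485489 to 81614591 over the 8 libraries. Levels are CPM, counts scaled to a common library size with TMM factors, differences are log2 GFP-high minus GFP-negative with their standard errors (SE) from edgeR, and genes called are those with an adjusted p under 0.05. Log2 levels correlated at 0.995 to 0.997 between GFP-high libraries and at 0.975 to 0.989 between GFP-negative libraries. The libraries labelled replicate 1 had counts of Xist and no count of the Y-linked Ddx3y in both fractions, and replicates 2 to 4 had Ddx3y counts, so the sexes were represented alike on both sides. In these bulk samples fewer cells of a type and less RNA per cell cannot be told apart.

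Lgr5 had 405, 283, 280.2 and 282 CPM in the GFP-high libraries, against 1.89, 3.38, 3.07 and 2.36 CPM in the GFP-negative libraries. The log2 difference was 6.87 ± 0.34 (adjusted p = 4.68e-22), and no library went against its label. The GFP-intermediate libraries had 113, 76.1, 55.7 and 59.9 CPM. Since the cells were sorted by this gene's reporter, its difference is a check of the gates and not a result. The gates divided the transcriptome broadly: of 23360 genes tested, 11013 were called (47.1%), 5266 of them higher in GFP-high cells (22.5%) and 5747 lower (24.6%). Of the called genes 2992 were higher and 3813 lower by at least 2-fold, and the median log2 difference over all genes was 0.00. The 4 GFP-high and 4 GFP-negative libraries did not overlap, in either direction, for 9961 of the genes tested (42.6%). The counts of called list members and the cases without overlap below stand against these shares of all genes.

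**Figure D1:**
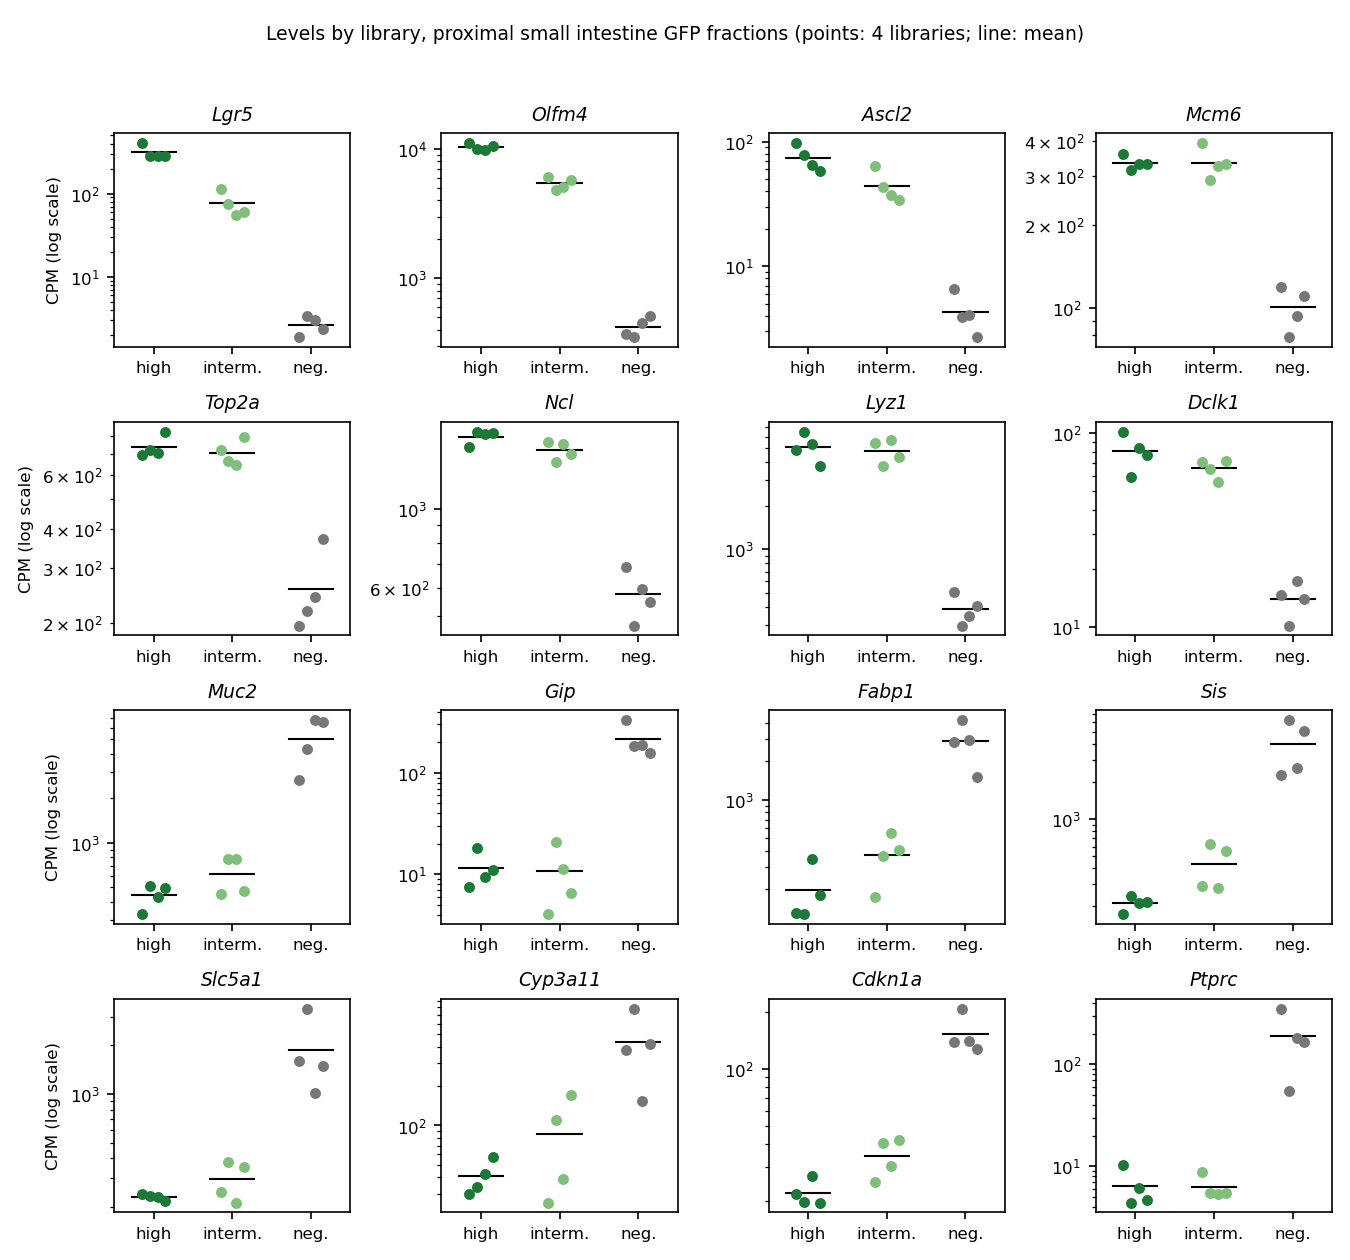
CPM of 16 genes (log axis) in each of the 4 GFP-high, 4 GFP-intermediate and 4 GFP-negative libraries of the proximal small intestine; points are libraries and lines are means. The stem, cell cycle, ribosome and Paneth genes lie above the GFP-negative libraries in all GFP-high libraries, and the absorptive, goblet, hormone and leukocyte genes lie below them; Lgr5 and Olfm4 step down through GFP-intermediate, while Mcm6 and Lyz1 are as high there as in GFP-high cells.

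The crypt base programme was higher in GFP-high cells throughout. All 31 tested genes of the crypt base stem cell list were called higher, with a median log2 difference of 3.20. The list includes Lgr5 itself and genes known from sorts by Lgr5, so its direction is not independent of the gate. Olfm4, a secreted olfactomedin made at the crypt base, had 11078, 9937, 9881 and 10488 CPM in GFP-high libraries, against 373, 352, 454 and 515 CPM in GFP-negative libraries. Its log2 difference was 4.61 ± 0.83 (adjusted p = 5.69e-06). Ascl2, the Wnt-driven transcription factor of the stem cell state, had 97.4, 77.5, 65.5 and 57.8 CPM in GFP-high libraries and 6.62, 3.89, 4.08 and 2.70 CPM in GFP-negative libraries, a log2 difference of 4.11 ± 0.37 (adjusted p = 1.46e-13). The groups did not overlap for either gene.

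Other members spanned a wide range. Tnfrsf19, a Wnt target receptor of the TNF receptor family, had 18.5 to 30.9 CPM in GFP-high libraries and 0.161 to 0.381 CPM in GFP-negative libraries, which after Lgr5 was the largest difference of the list (log2 6.57 ± 0.34, adjusted p = 8.68e-22). Gkn3, a gastrokine, averaged 70.5 ± 15.3 CPM in GFP-high cells and 2.24 ± 0.476 CPM in GFP-negative cells (SD, n = 4 each; log2 4.97). The abundant members Slc12a2, a sodium, potassium and chloride cotransporter, at 2227 to 2461 CPM in GFP-high against 142 to 205 CPM in GFP-negative libraries, and Cdca7, a Myc target, at 447 to 527 CPM in GFP-high against 45.5 to 65.2 CPM in GFP-negative libraries, differed by 3.74 and 3.12 on the log2 scale. Rgmb, a BMP co-receptor, Sox9, a transcription factor of crypts, the kinase Cdk6 and the water channel Aqp4 differed by 3.33, 3.35, 2.68 and 2.93. Smoc2, a secreted calcium-binding protein, differed by 2.95 here, against 3.36 in the middle and 4.17 in the distal part, and this smaller proximal difference was called (log2 -0.82 ± 0.17, adjusted p = 0.00242).

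Receptors and feedback inhibitors of the Wnt and R-spondin pathway were largely higher. R-spondins bind Lgr4 and Lgr5, which removes the ubiquitin ligases Znrf3 and Rnf43 from the membrane and so keeps Frizzled receptors there. Of 20 reception genes 13 were higher, 2 lower and 5 not called, with a median of 0.69. It was 1.38 when 3 genes under a floor of 3 counts per library on both sides were left out. Lgr4 had 291, 289.7, 247 and 261 CPM in GFP-high libraries, against 114, 165, 186 and 178 CPM in GFP-negative libraries, so it was present on both sides and differed by 0.76 ± 0.14 (adjusted p = 5.71e-06). Znrf3 had 47.1 to 55.1 CPM in GFP-high and 10.9 to 14.7 CPM in GFP-negative libraries, and Rnf43 had 208 to 237 CPM in GFP-high and 31.4 to 62.3 CPM in GFP-negative libraries. Both were higher in every GFP-high library, by 2.03 and 2.21 on the log2 scale.

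The Frizzled receptors did not move as one. Fzd2 and Fzd7 were higher in GFP-high cells, by 4.29 ± 0.45 and 2.26 ± 0.18 (adjusted p = 1.61e-11 and 2.95e-15). Fzd7 had 92.3 to 110.5 CPM in GFP-high libraries and 13.6 to 28.6 CPM in GFP-negative libraries. Fzd5, the Frizzled that Paneth cells need to mature, was lower, with 188, 179.6, 184 and 179 CPM in GFP-high libraries, against 203, 228, 279 and 253 CPM in GFP-negative libraries (log2 -0.40 ± 0.14, adjusted p = 0.0176, or 0.0806 without GFP-negative replicate 3). Fzd4 was also lower (-1.64).

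Of 26 feedback and target genes 14 were higher and 1 lower, with a median of 0.95. Axin2, a scaffold of the beta-catenin destruction complex, had 461, 458, 399 and 389 CPM in GFP-high libraries and 37.3, 62.5, 55.0 and 30.7 CPM in GFP-negative libraries (log2 3.20 ± 0.26, adjusted p = 5.62e-15). Nkd1, an inhibitor of Dishevelled, differed more at a lower level, with 5.67 to 11.7 CPM in GFP-high and 0.0599 to 0.242 CPM in GFP-negative libraries (log2 5.67 ± 0.45, adjusted p = 3.37e-15). Myc, Cd44, a hyaluronan receptor, Sox4 and Sfrp5, a secreted Wnt antagonist, were higher by 2.61, 3.05, 3.46 and 4.28. Tcf7l2, the main TCF of the intestine, was the gene of this list called lower (log2 -0.35 ± 0.14, adjusted p = 0.038). This call was lost without GFP-high replicate 1, 2 or 3 or GFP-negative replicate 2 or 4 (adjusted p from 0.0543 to 0.15). With all libraries it was lost in a fit of the groups compared alone (adjusted p = 0.0514) and without the count filter (0.0528).

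EphB receptors, which hold cells at crypt positions through repulsion from ephrin-B ligands, showed opposite signs to their ligand. Ephb3 had 119.6, 113, 121 and 103 CPM in GFP-high libraries, against 7.46, 5.85, 8.03 and 5.28 CPM in GFP-negative libraries (log2 4.10 ± 0.23, adjusted p = 2.07e-20). Ephb2 and Ephb4 were higher by 1.58 and 1.74. The ligand Efnb2 had 13.8, 20.3, 21.2 and 17.7 CPM in GFP-high libraries and 108, 185, 156 and 138 CPM in GFP-negative libraries, a difference of -3.00 ± 0.23 (adjusted p = 1.61e-15). Efnb1 was at the threshold, at -0.56 (adjusted p = 0.0502), and was called without GFP-negative replicate 1 or 4 (adjusted p = 0.0368 and 0.0195). With all libraries it was called in a fit of the groups compared alone (adjusted p = 0.0241), with edgeR's newer quasi-likelihood method (0.0484), with DESeq2's size factors (0.015) and by the DESeq2 Wald test (0.0108). Of the 7 genes of this list 3 were higher and 1 was lower.

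In the Notch pathway, which keeps progenitors from becoming secretory, 8 of 24 genes were higher, 4 lower and 12 not called. The receptor Notch1 had 133 to 179 CPM in GFP-high libraries and 20.7 to 28.9 CPM in GFP-negative libraries (log2 2.70 ± 0.22, adjusted p = 5.75e-15). Notch2 and the target repressor Hes1 were higher by 1.61 and 1.64. Atoh1, the secretory fate factor that Hes1 represses, was lower, with 11.6, 19.2, 14.8 and 13.9 CPM in GFP-high libraries and 32.6, 26.0, 44.5 and 34.7 CPM in GFP-negative libraries (log2 -1.21 ± 0.23, adjusted p = 2.06e-05). All GFP-high libraries lay below all GFP-negative libraries for Atoh1.

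BMP signals restrain proliferation outside the crypt base. The BMP list had 5 higher and 10 lower of 24 genes. The targets Id2, Id3 and Smad6 were lower, with log2 differences of -1.21, -1.22 and -1.29, while Rgmb and the ligand Bmp7 were higher, Bmp7 with 27.6 to 32.5 CPM in GFP-high and 4.18 to 5.57 CPM in GFP-negative libraries (log2 2.61 ± 0.22, adjusted p = 2.41e-14). Id1 was not called (-0.30, adjusted p = 0.275). In the middle and distal parts Id1 was lower (-1.05 and -1.51), and the difference between parts was called (log2 0.98, adjusted p = 0.0424). That call between parts was not checked under other settings. Of 21 niche ligands 3 were higher and 9 lower. Wnt3, the Wnt made by Paneth cells, had 6.28 to 8.54 CPM in GFP-high and 1.44 to 2.01 CPM in GFP-negative libraries (log2 2.12 ± 0.45, adjusted p = 8.2e-05). The hedgehog ligand Ihh, made by differentiating epithelium, had 12.8 to 18.3 CPM in GFP-high and 42.8 to 114 CPM in GFP-negative libraries (log2 -2.38 ± 0.32, adjusted p = 1.59e-08).

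The list of reserve and regenerative genes divided: 9 of 21 were higher and 8 lower. Mex3a, an RNA-binding protein that marks a slowly cycling subset of Lgr5 cells, had 25.8, 23.6, 21.1 and 23.2 CPM in GFP-high libraries, against 1.65, 1.57, 1.48 and 1.55 CPM in GFP-negative libraries (log2 3.91 ± 0.22, adjusted p = 2.57e-20). Lrig1, an ErbB inhibitor, Hopx and Bmi1, proposed reserve stem cell markers, were higher by 2.23, 1.23 and 0.42. Bmi1 was close in level on both sides, at 37.2 to 41.1 CPM in GFP-high and 24.1 to 33.2 CPM in GFP-negative libraries. The 8 lower members included Ly6a (-3.44), the annexins Anxa2 (-3.01) and Anxa3 (-3.41) and the alarmin Il33 (-4.05). Ly6a is also expressed by leukocytes, and the summed leukocyte markers were higher in every GFP-negative library (42.4 to 69.6 CPM in GFP-high and 823 to 6285 CPM in GFP-negative libraries); their part in these differences was not tested.

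The cell cycle machinery was higher in GFP-high cells across nearly all its genes, at moderate size. Of 45 genes of DNA replication 43 were higher (median 1.43), and of 42 mitotic genes 41 were higher and none was called lower (median 1.15). Mcm6, a subunit of the replicative helicase, had 360.3, 316, 331 and 330.4 CPM in GFP-high libraries, against 119, 78.5, 93.8 and 111 CPM in GFP-negative libraries (log2 1.73 ± 0.25, adjusted p = 5.67e-08). Top2a, a topoisomerase of dividing cells, had 695, 719, 705 and 825 CPM in GFP-high libraries, against 196, 219, 242 and 373 CPM in GFP-negative libraries (log2 1.52 ± 0.26, adjusted p = 2.48e-06). Mki67 averaged 658 ± 77.8 CPM in GFP-high cells and 308 ± 131 CPM in GFP-negative cells (SD, n = 4 each; log2 1.10). Cell cycle RNA was therefore present on both sides of the gate, and GFP-negative replicate 4 had the most Mki67 and Top2a of its group.

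Within the replication list Cdc6, which loads the helicase, and Orc1, a subunit of the origin recognition complex, were higher by 1.60 and 2.13. E2f2, a member of the E2F family, went against the list, with 59.5, 58.0, 60.3 and 64.5 CPM in GFP-high libraries and 81.9, 97.0, 129 and 85.1 CPM in GFP-negative libraries (log2 -0.70 ± 0.23, adjusted p = 0.0101, or 0.0648 without GFP-negative replicate 3). In mitosis Cdk1, Aurkb, Bub1b and Plk1, kinases of mitotic entry and of the checkpoint, were higher by 1.35, 1.57, 1.51 and 0.66. The brakes ran mainly the other way, with 12 of 21 genes lower and 4 higher. The inhibitor Cdkn1a had 21.8, 19.8, 27.2 and 19.5 CPM in GFP-high libraries, against 138, 207, 139.7 and 126 CPM in GFP-negative libraries (log2 -2.79 ± 0.33, adjusted p = 5.36e-10). Cdkn2b, an inhibitor of Cdk4 and Cdk6, had 3.81 to 7.49 CPM in GFP-high and 72.3 to 123 CPM in GFP-negative libraries (log2 -3.84 ± 0.40, adjusted p = 1.63e-11). Trp53 and Cdkn1b were higher, by 1.34 and 0.55.

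Sequences near the start of these genes show the elements through which cell cycle genes are known to be timed: E2F sites in genes of replication and the cell cycle homology region (CHR, letters TTTGAA), often with CCAAT boxes, in genes of mitosis. RefSeq windows on GRCm38.p6, from 250 bases before to 50 after a start, were searched on both strands. They were at hand for 36 replication and 35 mitotic genes of the lists. TTTGAA was in 27 of the 35 mitotic genes (77.1%), 5 of the 36 replication genes (13.9%) and 20.2% of 27025 genes. The E2F letters TTCCCGC were in 15 of the 36 replication genes (41.7%), none of the mitotic genes and 5.29% of all, and CCAAT was in 26 mitotic (74.3%) and 23 replication genes (63.9%) against 41.1% of all. The letters of the 3 motifs are not contained in one another, and a match is a description of the sequence, not a binding site. The 120 bases that end at the start of Cdk1 (chr10:69352913-69353032, minus strand) and a stretch of equal length upstream of the start of Cdc6 (chr11:98907956-98908075, plus strand) are shown 5′ to 3′ on the gene's strand as one example of each, with the CHR letters of Cdk1 and the E2F letters of Cdc6, there on the opposite strand, in capitals.
Cdk1: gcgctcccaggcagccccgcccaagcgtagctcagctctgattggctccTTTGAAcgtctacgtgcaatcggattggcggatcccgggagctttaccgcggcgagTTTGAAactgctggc
Cdc6: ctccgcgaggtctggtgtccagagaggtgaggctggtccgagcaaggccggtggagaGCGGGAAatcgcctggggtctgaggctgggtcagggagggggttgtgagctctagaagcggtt

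The genes that build ribosomes moved with the cell cycle genes. Of 36 biogenesis genes 35 were higher (median 1.24), and of 51 cytosolic ribosomal proteins 50 were higher (median 0.93), with none called lower in either list. Ncl, the nucleolar protein nucleolin, had 1489, 1649.6, 1619 and 1631 CPM in GFP-high libraries, against 687, 469, 595 and 546 CPM in GFP-negative libraries (log2 1.48 ± 0.13, adjusted p = 9.41e-14). Npm1, Fbl and Polr1b, a subunit of RNA polymerase I, were higher by 1.66, 1.35 and 1.69. Ribosomal protein genes made up 5.87% to 6.05% of all counts in GFP-high libraries and 2.11% to 3.81% in GFP-negative libraries, the highest of these in replicate 1. Of 30 chromatin writers 22 were higher and 1, Tet2, lower, with an adjusted p of 0.0047, or 0.0521 without GFP-negative replicate 4. Dnmt1, which copies DNA methylation at replication, and its partner Uhrf1 were higher by 1.63 and 1.72, and Ezh2, the Polycomb methyltransferase, by 1.08.

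**Figure D2:**
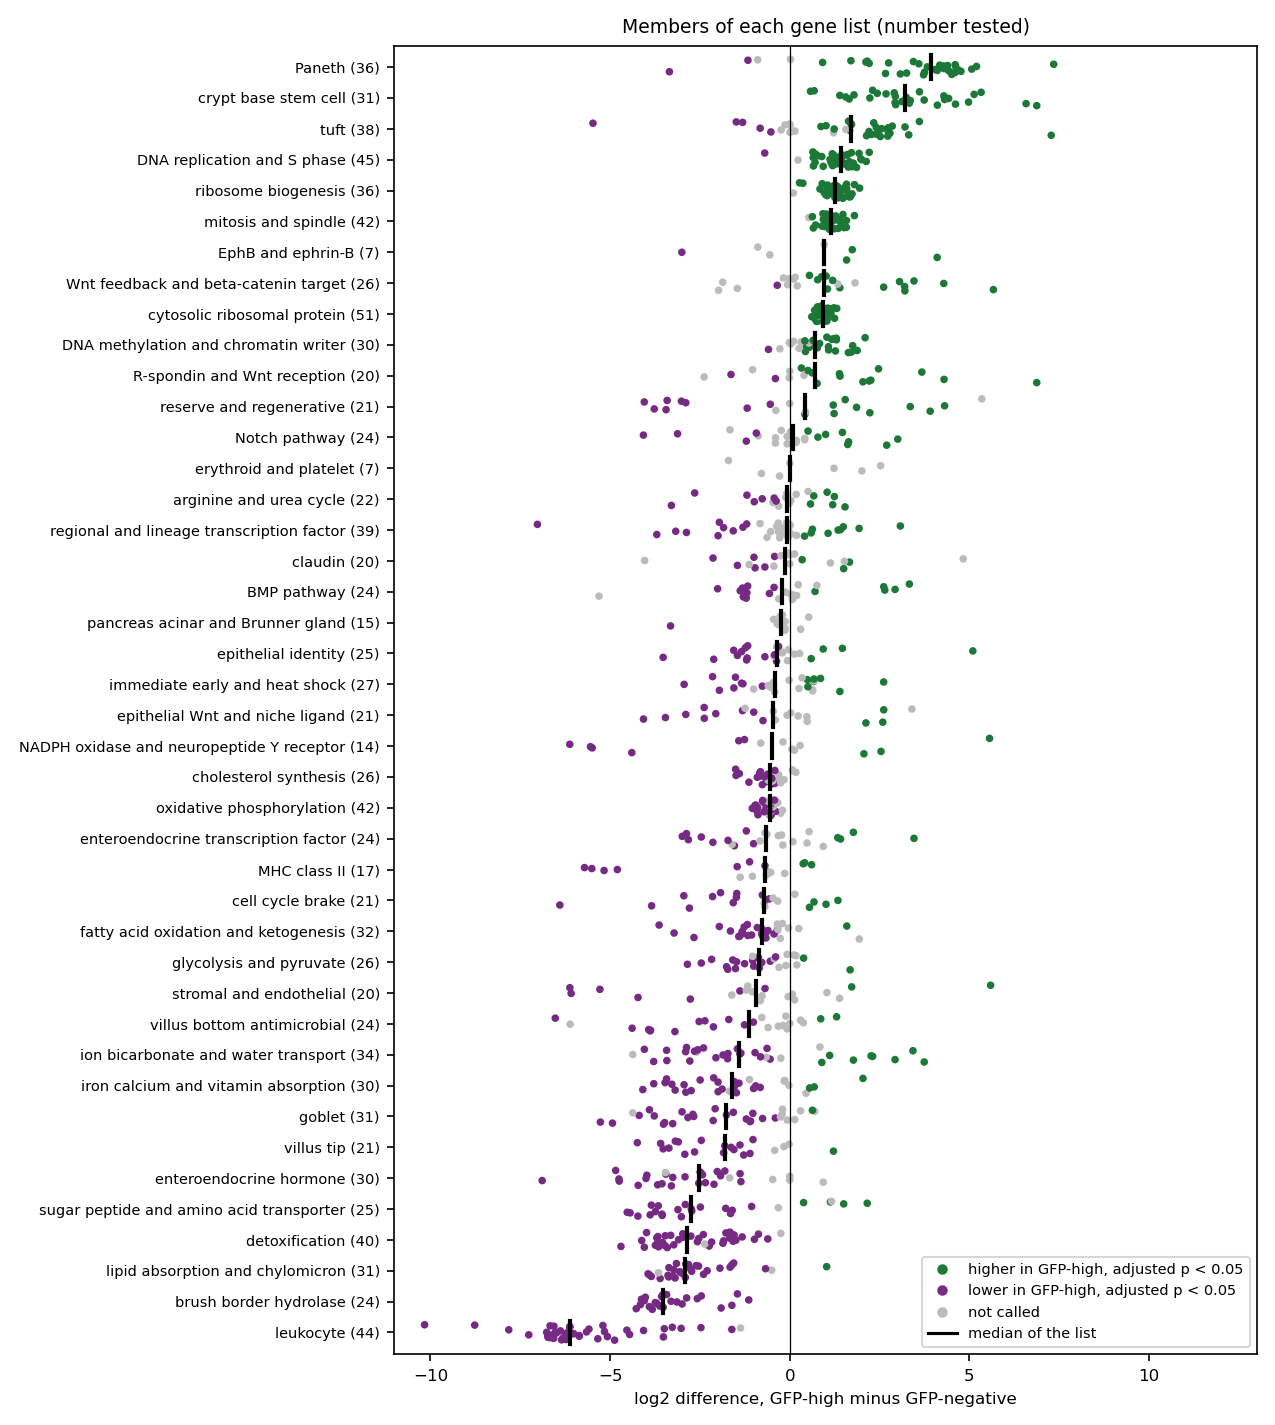
Log2 difference of GFP-high minus GFP-negative for every tested member of the 42 gene lists, ordered by the list's median (black line), with called members in colour. Paneth and crypt base stem cell genes lie at the top, with medians of 3.93 and 3.20, and the replication, mitosis and ribosome lists have medians between 0.93 and 1.43. The lists of hydrolases, fat absorption, detoxification and sugar, peptide and amino acid transporters have medians below -2.7, above the leukocyte list at -6.12.

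Genes of digestion and absorption were mainly lower in GFP-high cells in each list of them. Of 24 brush border hydrolases all were lower in GFP-high cells, with a median of -3.53, and of 31 genes of fat uptake and chylomicron assembly 28 were lower (median -2.91). Sis, the sucrase and isomaltase of the brush border, had 171, 241, 211 and 213 CPM in GFP-high libraries, against 2271, 6239, 2595 and 5065 CPM in GFP-negative libraries (log2 -4.27 ± 0.43, adjusted p = 6.49e-12). Lct, the lactase, had 107, 103, 215 and 174 CPM in GFP-high libraries, against 1507, 3469.7, 1643 and 1888 CPM in GFP-negative libraries (log2 -3.83 ± 0.58, adjusted p = 1.97e-07). GFP-negative replicate 2 had the most Sis and Lct, and the summed hydrolases came to 2348 to 3045 CPM in GFP-high and 18148 to 42085 CPM in GFP-negative libraries, the highest in that library. The peptidases Anpep and Dpp4 and the phosphatase Alpi were lower, with log2 differences of -3.91, -1.61 and -3.62.

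The letters CAAAGTCC, a direct match to the known element of the nuclear receptors HNF4, were in 5 of the 20 hydrolase genes with a RefSeq window (25%) and in 1.63% of all genes. They were in none of 24 genes of fat absorption, 1 of 21 sugar, peptide and amino acid transporters and 4 of 36 detoxification genes. They share CAAAG with the TCF letters used below. The window that ends at the start of Alpi (chr1:87101607-87101726, minus strand) is shown because its match lies 19 bases before that start. HNF4 factors themselves differed in sign: Hnf4a had 1344, 1289.6, 1177 and 1299 CPM in GFP-high libraries, against 790.2, 1166, 956 and 929.7 CPM in GFP-negative libraries (log2 0.41 ± 0.11, adjusted p = 0.00191), and Hnf4g had 81.3, 91.7, 123 and 105 CPM in GFP-high libraries, against 188, 426, 451 and 537 CPM in GFP-negative libraries (log2 -1.996 ± 0.21, adjusted p = 2.35e-11). Hnf4a was not called in the middle or distal part (-0.02 and -0.21), and its difference between parts was called (log2 0.53, adjusted p = 0.0256). Whether this call between parts holds under other settings was not checked. Capitals mark the match in Alpi.
Alpi: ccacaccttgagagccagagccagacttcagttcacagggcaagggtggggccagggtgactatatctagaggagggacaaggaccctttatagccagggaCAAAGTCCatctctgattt

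In fat absorption the lower genes included carriers, enzymes and apolipoproteins. Fabp1 and Fabp2, the cytosolic fatty acid carriers, differed by -3.86 and -3.25. Fabp1 had 131, 128, 347 and 182 CPM in GFP-high libraries, against 2810.3, 4175, 2913 and 1504 CPM in GFP-negative libraries. Mogat2 and Dgat1, which re-esterify triglyceride, were lower, with log2 differences of -3.91 and -2.40. Mttp, which loads lipid onto apolipoprotein B, had 261 to 501 CPM in GFP-high and 2401 to 4908 CPM in GFP-negative libraries (log2 -3.37 ± 0.26, adjusted p = 2.63e-15), and the apolipoproteins Apob, Apoa1 and Apoa4 were lower, with log2 differences of -2.91, -3.61 and -3.19. Mgll, a monoglyceride lipase, was the member called higher (1.03, adjusted p = 0.0317), but its libraries overlapped. The call was lost without GFP-high replicate 1 or 3 or GFP-negative replicate 1, 2 or 4 (adjusted p from 0.052 to 0.152). It was also lost with DESeq2's size factors (adjusted p = 0.0557).

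Nutrient transporters were mainly lower. Of 25 sugar, peptide and amino acid transporters 19 were lower (median -2.74) and 4 higher. The glucose transporters Slc5a1 of the brush border and Slc2a2 of the basolateral membrane were lower, with log2 differences of -3.02 and -4.23, the fructose transporter Slc2a5 at -3.55 and the peptide transporter Slc15a1 at -3.88. Slc5a1 had 241, 234, 229 and 218 CPM in GFP-high libraries, against 1607, 3365, 1013 and 1481 CPM in GFP-negative libraries. The 4 higher genes were amino acid carriers known for supplying growing cells: Slc7a5, Slc1a5, Slc7a1 and Slc38a2, at 2.15, 1.50, 1.13 and 0.38. Slc7a5 had 59.4, 54.0, 58.4 and 54.5 CPM in GFP-high libraries, against 15.5, 11.4, 10.8 and 13.2 CPM in GFP-negative libraries (log2 2.15 ± 0.19, adjusted p = 1e-13).

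Of 30 genes of iron, calcium and vitamin uptake 21 were lower and 3 higher. The iron importer Slc11a2 and the exporter Slc40a1 were lower, with log2 differences of -1.48 and -2.89, and the ferritin heavy chain Fth1 at -1.88. Rbp2, the retinol carrier of enterocytes, was lower, with a log2 difference of -4.09, with 97.7 to 318 CPM in GFP-high and 2421 to 4539 CPM in GFP-negative libraries. The 3 higher genes were the transferrin receptor Tfrc (0.55), the vitamin D receptor Vdr (0.68) and the transcobalamin receptor Cd320 (2.04). Cd320 had 32.4, 24.0, 25.2 and 24.9 CPM in GFP-high libraries, against 7.70, 5.14, 7.27 and 5.78 CPM in GFP-negative libraries.

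Ion and water transport was also divided, with 21 of 34 genes lower and 8 higher. The lower members included Slc9a3, the apical sodium and proton exchanger, at -3.79, and the anion exchangers Slc26a3 and Slc26a6 at -2.78 and -3.42. The 8 higher members included the chloride channel Cftr (0.89), Slc12a2 (3.74) and the potassium channel Kcnq1 with its subunit Kcne3 (2.30 and 2.26). Kcnq1 had 389, 317, 325 and 318 CPM in GFP-high libraries, against 84.9, 63.1, 70.7 and 54.4 CPM in GFP-negative libraries (log2 2.30 ± 0.16, adjusted p = 5.22e-17). The water channel Aqp1 and the carbonic anhydrase Car12 were higher by 1.77 and 3.43.

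Of 40 detoxification genes 38 were lower and none higher (median -2.86). Cyp3a11, a drug-metabolising P450, had 29.7, 33.6, 42.4 and 57.5 CPM in GFP-high libraries, against 376, 783, 155 and 419 CPM in GFP-negative libraries (log2 -3.41 ± 0.56, adjusted p = 1.57e-06). The glutathione transferases Gsta1 and Gsta4 and the drug exporter Abcb1a were lower, with log2 differences of -4.70, -4.12 and -2.24. The Gsta genes are close paralogues, and how reads shared between them were counted is not stated.

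By position along the villus, 12 of 24 genes known from the villus bottom were lower and 2 higher, and 17 of 21 genes of the villus tip were lower and 1 higher. The antimicrobial lectin Reg3g had 51.3, 113, 105 and 108 CPM in GFP-high libraries, against 327, 1469, 795 and 876 CPM in GFP-negative libraries (log2 -3.20 ± 0.67, adjusted p = 6.97e-05). At the tip, Krt20, a keratin of mature enterocytes, was lower, with a log2 difference of -3.52 and the ecto-nucleotidase Nt5e at -2.92. Egfr was the tip list's member called higher (1.22), with 65.6 to 85.3 CPM in GFP-high and 22.2 to 43.3 CPM in GFP-negative libraries.

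Among 39 regional and lineage transcription factors 9 were higher, 10 lower and 20 not called. Gata4, a factor of the proximal gut, was not called: it had 206, 224, 195 and 196 CPM in GFP-high libraries and 194, 350.2, 275 and 178 CPM in GFP-negative libraries (log2 -0.28 ± 0.40, adjusted p = 0.607). Maf, a factor of mature enterocytes, was lower, with 14.6 to 19.1 CPM in GFP-high and 159 to 320.3 CPM in GFP-negative libraries (log2 -3.70 ± 0.42, adjusted p = 1.69e-10). Ehf, an epithelial Ets factor, and Foxa1 were higher by 1.93 and 1.34.

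Paneth cell transcripts were among the genes most raised in GFP-high cells. Of 36 Paneth genes 32 were higher and 2 lower, with a median of 3.93. Lyz1, a lysozyme secreted from Paneth granules, had 4838, 6502, 5347 and 3770.0 CPM in GFP-high libraries, against 507, 296, 344 and 402 CPM in GFP-negative libraries (log2 3.72 ± 0.46, adjusted p = 1.35e-09). Mptx2, a secreted pentraxin, had 289.6, 404, 349.9 and 274 CPM in GFP-high libraries, against 18.3, 13.5, 14.1 and 12.1 CPM in GFP-negative libraries (log2 4.51 ± 0.50, adjusted p = 8.47e-11). All 28 alpha-defensin genes tested were higher, by 2.51 to 7.34 with a median of 4.34, and 18 of them reached 10 CPM in GFP-high cells; they are near-identical copies, so single defensin values are uncertain. Mmp7, the protease that activates alpha-defensins, had 50.3 to 114 CPM in GFP-high libraries and 7.01 to 13.9 CPM in GFP-negative libraries (log2 3.08 ± 0.40, adjusted p = 5.1e-09). Mptx1 and Xbp1, a factor of secretory cells, were the members called lower (-3.35 and -1.16).

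The summed CPM of the Paneth list was 21029, 22491, 19419 and 11756 in GFP-high replicates 1 to 4, against 2591, 1411, 1632 and 1443 in GFP-negative replicates 1 to 4, so GFP-high replicate 4 had the least of its group and still more than any GFP-negative library. No gene of the list was at 0 in any GFP-high library. The part of Paneth transcripts in other differences was not tested. Paneth genes are known targets of Wnt signalling, and the TCF letters ATCAAAG were in 10 of 25 Paneth genes with a RefSeq window (40%), 9 of them alpha-defensins, against 4.29% of all genes. In the other lists of Wnt-related genes they were in 1 of 17 feedback and target genes (5.88%), none of 12 reception genes and 2 of 21 crypt base genes (9.52%). Lists of other kinds had higher shares than these, such as 2 of 13 MHC class II genes (15.4%) and 3 of 20 hydrolases (15%). The 9 alpha-defensins are near-identical copies, so their matches are not separate observations. Mmp7 is the remaining Paneth gene; the 120 bases that end with its match, just after its start (chr9:7691981-7692100, plus strand), read as follows, with the match in capitals.
Mmp7: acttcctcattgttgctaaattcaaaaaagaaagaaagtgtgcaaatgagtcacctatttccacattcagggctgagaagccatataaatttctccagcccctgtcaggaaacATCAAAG

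Tuft cell genes, of the chemosensory cells that start type 2 responses, were also higher: 25 of 38, with 5 lower and a median of 1.71. Dclk1, a kinase that marks tuft cells, had 101, 59.2, 83.3 and 77.1 CPM in GFP-high libraries, against 14.6, 10.2, 17.3 and 13.9 CPM in GFP-negative libraries (log2 2.52 ± 0.30, adjusted p = 7.75e-10). The cation channel Trpm5 and the lineage factor Pou2f3 were higher by 2.73 and 2.14. The summed tuft list was 1262 to 1849 CPM in GFP-high and 662 to 1065 CPM in GFP-negative libraries. The 5 lower members were Plcg2, Ptpn6, Cysltr2, Il4ra and Il13ra1, of which Plcg2 and Ptpn6 are widely expressed in leukocytes. Both overlapped between groups, and their calls were lost without GFP-negative replicate 1 (adjusted p = 0.175 and 0.348), the library with the highest sum of leukocyte markers. The call of Plcg2 was also lost without GFP-high replicate 2 or 3 (adjusted p = 0.127 and 0.0619), and that of Ptpn6 in a fit of the groups compared alone (0.0554). Cysltr2, Il4ra and Il13ra1 did not overlap between groups, which held for 42.6% of all genes. Cysltr2 had 6.37, 1.73, 4.71 and 3.65 CPM in GFP-negative replicates 1 to 4, the same order of libraries as the leukocyte sum. Il4ra and Il13ra1 did not have that order. The part of leukocyte RNA in these 5 differences was not tested.

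Goblet and enteroendocrine genes went the opposite way. Of 31 goblet genes 22 were lower and 1 higher (median -1.76). The mucin Muc2 had 330.1, 512, 435 and 497 CPM in GFP-high libraries, against 2652, 4322, 6747 and 6556 CPM in GFP-negative libraries (log2 -3.51 ± 0.33, adjusted p = 5e-13). Zg16, a lectin of goblet granules, had 151, 104, 172 and 138 CPM in GFP-high libraries, against 7675, 3881, 5241 and 5019 CPM in GFP-negative libraries (log2 -5.27 ± 0.45, adjusted p = 5.39e-14). The goblet factor Spdef differed less, by -1.11 ± 0.30 (adjusted p = 0.00191). Markers of secretory lineages stood on both sides of the gate, Paneth and tuft genes higher in GFP-high and goblet and hormone genes higher in GFP-negative libraries.

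Of 30 enteroendocrine hormone genes 24 were lower and none higher (median -2.51, or -2.72 with genes at 0 on one side set to their bound and 2 genes under the floor on both sides left out). Gip, the duodenal incretin, had 7.48, 18.2, 9.33 and 10.9 CPM in GFP-high libraries, against 331, 182, 187 and 156 CPM in GFP-negative libraries (log2 -4.22 ± 0.67, adjusted p = 1.11e-06). Cck, Sct, encoding secretin, and Sst, encoding somatostatin, were lower, with log2 differences of -3.30, -3.68 and -3.55. Neurog3, the factor that starts the endocrine fate, was not called: it had 5.27, 7.35, 7.84 and 6.78 CPM in GFP-high libraries and 3.13, 1.67, 6.90 and 2.57 CPM in GFP-negative libraries (log2 0.93 ± 0.47, adjusted p = 0.101, or 0.0158 without GFP-negative replicate 3). Of 24 endocrine transcription factors 4 were higher, Sox4 among them, and 9 lower, with Neurod1 at -1.54.

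RNA of energy metabolism genes was lower in GFP-high cells by smaller amounts. Of 42 oxidative phosphorylation genes 31 were lower and none higher, with a median of -0.55. Only 1 of them, Sdhb, was called lower by at least 2-fold. Sdhb, a subunit of complex II, had 169.6, 167, 186 and 181 CPM in GFP-high libraries, against 411, 433, 291 and 314 CPM in GFP-negative libraries (log2 -1.04 ± 0.12, adjusted p = 2e-10). Of 26 glycolytic genes 16 were lower, among them Pkm (-1.73) and Ldha (-1.51). Hk2, a hexokinase of growing cells, was higher, with 149, 129, 108 and 96.8 CPM in GFP-high libraries, against 33.8, 35.8, 43.4 and 37.7 CPM in GFP-negative libraries (log2 1.68 ± 0.16, adjusted p = 2.39e-12).

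Of 32 genes of fatty acid oxidation and ketogenesis 23 were lower and 1 higher. Acot1, an acyl-CoA thioesterase, was the member called higher (1.59, adjusted p = 0.0362), with overlapping groups and replicate 3 highest on both sides; without GFP-high replicate 3 or GFP-negative replicate 1, 2 or 4 it was not called (adjusted p from 0.0997 to 0.174). Of 26 genes of cholesterol synthesis 17 were lower and none higher. In arginine metabolism Cps1, which makes carbamoyl phosphate for the urea cycle, was higher, with 5528 to 6568 CPM in GFP-high and 1549.6 to 2558 CPM in GFP-negative libraries (log2 1.54 ± 0.22, adjusted p = 5.6e-08), and the mitochondrial arginase Arg2 was lower, with 35.1 to 39.5 CPM in GFP-high and 319.9 to 461 CPM in GFP-negative libraries (log2 -3.30 ± 0.36, adjusted p = 4.36e-11).

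The labels call all samples epithelial, and the epithelial markers Epcam and Krt8 were abundant in both fractions, Epcam at 1423 to 1523 CPM in GFP-high and 1746 to 2086 CPM in GFP-negative libraries. The GFP-negative libraries also held leukocyte transcripts. Of 44 leukocyte markers 43 were lower in GFP-high cells and none was higher, with a median of -6.12. Their summed level was 69.6, 42.4, 49.9 and 47.6 CPM in GFP-high replicates 1 to 4, against 6285, 823, 2556 and 1990.1 CPM in GFP-negative replicates 1 to 4. Ptprc, the pan-leukocyte phosphatase CD45, had 10.4, 4.40, 6.16 and 4.70 CPM in GFP-high libraries and 351, 54.4, 179.6 and 166 CPM in GFP-negative libraries (log2 -4.87 ± 0.59, adjusted p = 1.07e-09). GFP-negative replicate 1 had the most and replicate 2 the least, and of the list Cpa3, a mast cell protease, was at 0 in all GFP-high libraries and 9 other members were at 0 in at least one of them.

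Among markers of intraepithelial T cells Cd8a, the integrin Itgae and the granzymes Gzma and Gzmb were lower, with log2 differences of -6.23, -5.34, -6.57 and -6.31. Differences of the mast cell protease Mcpt1 and the antibody joining chain Jchain were larger (-8.77 and -7.82). Of the 15 lower genes with the largest differences at 10 CPM or more, several are genes of lymphocytes, plasma cells or mast cells, such as Cd3g, Cd7, Nkg7, Jchain and Mcpt1, and one is a gut hormone, Nts, encoding neurotensin (0 to 0.828 CPM in GFP-high and 18.5 to 38.8 CPM in GFP-negative libraries). Vim, listed with the stromal markers and also expressed by leukocytes, was lower, with a log2 difference of -2.77, while the stromal list as a whole summed to 12.1 to 16.0 CPM in GFP-high and 28.1 to 113 CPM in GFP-negative libraries. Red cell markers summed to at most 5.0 CPM in any of the libraries. The part of leukocyte RNA in other lower genes was not tested.

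Pancreatic acinar and Brunner gland genes, summed as 1 list, were highest in replicate 2 on both sides of the gate. Their summed level was 8.71, 219, 108 and 6.74 CPM in GFP-high replicates 1 to 4, against 32.0, 339, 11.04 and 8.97 CPM in GFP-negative replicates 1 to 4. Replicate 3 differed between the gates, replicates 1 and 4 were below replicate 2 on both sides, and 14 of 15 genes of the list were not called. The MHC class II gene H2-Ab1 had 126, 122, 42.4 and 234 CPM in GFP-high replicates 1 to 4 and 379, 334, 77.1 and 288 CPM in GFP-negative replicates 1 to 4 (log2 -1.04 ± 0.51, adjusted p = 0.0868), with replicate 3 the lowest on both sides. With the replicate block the difference of -1.11 was called (adjusted p = 0.0242), as it was without GFP-high replicate 4 or GFP-negative replicate 3 (adjusted p = 0.0265 and 0.0289). Immediate early and heat shock genes, which respond to dissociation, were mixed, with 7 of 27 higher and 8 lower.

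**Figure D3:**
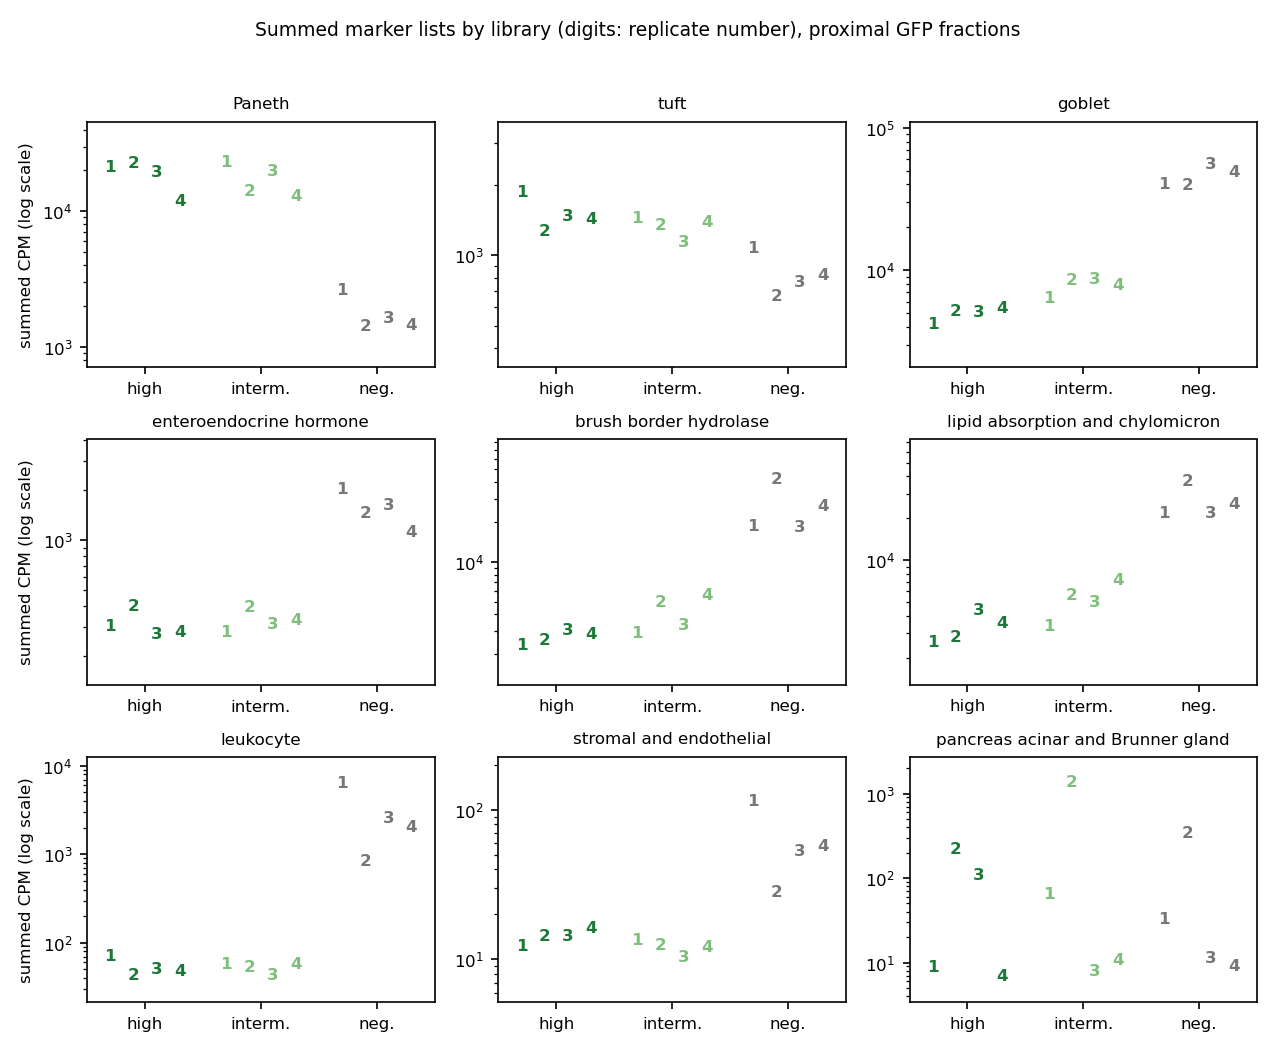
Summed CPM (log axis) of 9 marker lists in each library of the proximal GFP fractions, drawn as the replicate number. The GFP-high libraries lie above the GFP-negative ones for the Paneth and tuft sums, and goblet, hormone and absorptive sums are lower in GFP-high cells; leukocyte sums range from 42.4 to 69.6 CPM in GFP-high and from 823 to 6285 CPM in GFP-negative libraries, and sums of acinar and Brunner gland genes are highest in replicate 2 of each fraction.

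The 15 higher protein-coding genes with the largest differences at 10 CPM or more included Lgr5, Tnfrsf19, Gkn3 and 4 defensins. Further members of the crypt base list were among them. Cyp2e1, a P450 best known from liver, had 54.1, 46.5, 42.0 and 33.7 CPM in GFP-high libraries, against 1.20, 0.510, 1.32 and 1.35 CPM in GFP-negative libraries (log2 5.32 ± 0.67, adjusted p = 9.48e-09), opposite in sign to the detoxification list, and Fstl1, a secreted follistatin-like protein, differed by 5.13. Others were in no list. Slc1a2, a glutamate transporter best known from astrocytes, had 38.6, 27.8, 57.5 and 36.1 CPM in GFP-high libraries, against 0.330, 0.510, 1.41 and 0.440 CPM in GFP-negative libraries (log2 5.88 ± 0.70, adjusted p = 5.95e-10). Cbs, which makes cystathionine from homocysteine, and the serotonin receptor Htr4 differed by 5.08 and 4.63. Prelp, an extracellular matrix protein, had 145 to 199 CPM in GFP-high and 5.29 to 8.76 CPM in GFP-negative libraries (log2 4.63 ± 0.23, adjusted p = 4.68e-22).

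Nox1, a superoxide-producing NADPH oxidase known from colon and named in the study's title with the neuropeptide Y receptor Npy1r, was low here, with 2.17, 6.97, 0.532 and 10.4 CPM in GFP-high libraries and 0.614, 1.28, 0.309 and 2.63 CPM in GFP-negative libraries (log2 2.06 ± 0.58, adjusted p = 0.00243), and the groups overlapped. Fitted on the groups compared alone the adjusted p was 0.0717. Replicates 1 and 3 were the lowest on both sides. In the middle and distal parts it averaged 35.8 and 83.5 CPM in GFP-high cells, against 3.92 and 4.15 CPM in GFP-negative cells. Nox1 was not called as different between parts (log2 -1.70, adjusted p = 0.182). Its activator Noxa1 had 50.3, 63.9, 52.8 and 71.3 CPM in GFP-high libraries, against 9.80, 12.4, 8.67 and 10.1 CPM in GFP-negative libraries (log2 2.54 ± 0.25, adjusted p = 5.19e-12). Npy1r had 2 counts over all GFP-high libraries and 46 over all GFP-negative libraries, too few to give a ratio.

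The GFP-intermediate libraries show how the difference is distributed over Lgr5 levels. For 3181 genes called with at least 2-fold and 10 CPM, the GFP-intermediate mean lay at a median of 83.1% of the log2 distance that separates the GFP-high mean (100%) from the GFP-negative mean (0%) (quartiles 74.8% and 93.8%), and between both means for 87.1% of them. Lgr5 itself was at 70.3%, with 313, 76.2 and 2.67 CPM in GFP-high, GFP-intermediate and GFP-negative cells. Lists differed in this position, which was not tested. Replication genes had a median of 101.9%, mitotic genes 95.1%, ribosome biogenesis genes 95.3% and Paneth genes 96.6%, so these were about as high in GFP-intermediate as in GFP-high cells. Crypt base stem cell genes had a median of 77.4%, brush border hydrolases 78.1% and genes of the villus tip 72.6%. Leukocyte markers stood at 99.2%, with a summed level of 42.9 to 57.0 CPM in GFP-intermediate libraries.

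**Figure D4:**
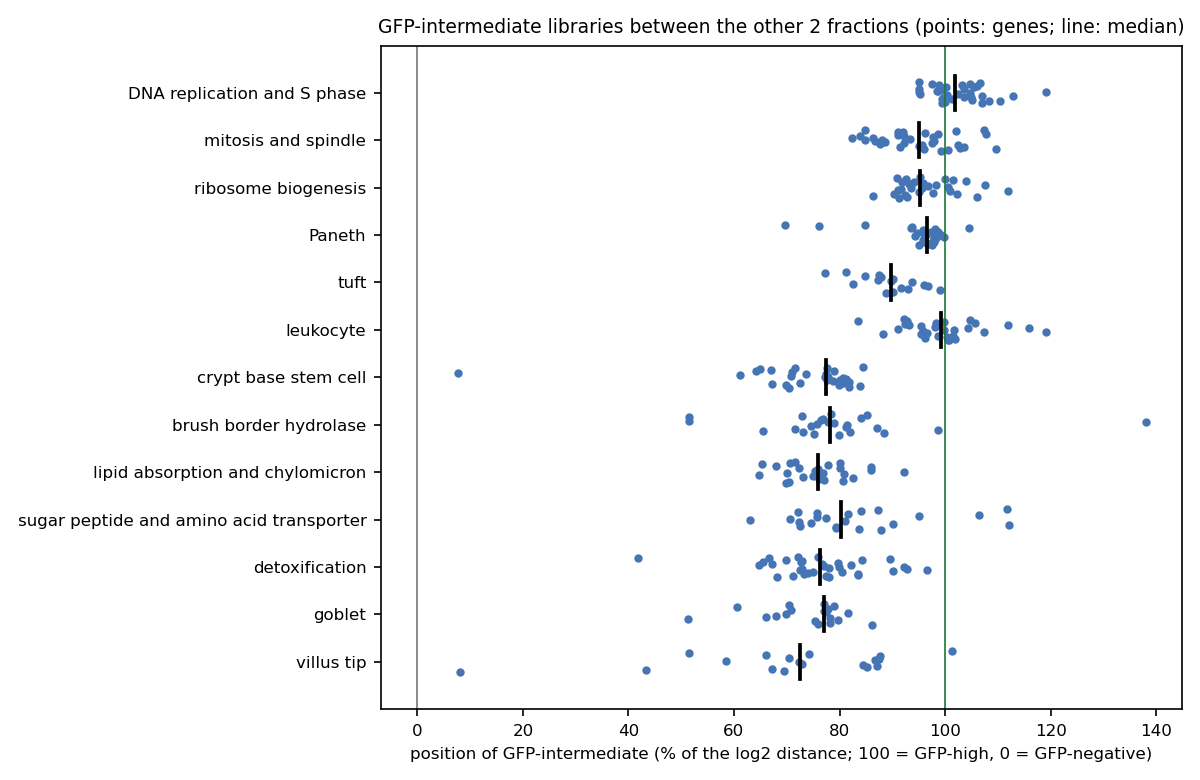
Position of the GFP-intermediate mean on the log2 scale between GFP-high (100%) and GFP-negative (0%) for called members of 13 lists with at least 2-fold difference and 10 CPM; points are genes and lines are medians. Replication, mitosis, ribosome, Paneth and leukocyte genes cluster near 100%, and stem cell and absorptive genes near 72% to 80%.

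The contrast was then set against the mean of the same contrast in the middle and distal small intestine, which shares no library with it. The difference was called for 498 of 23360 genes (2.13%), 140 of them positive (0.599%) and 358 negative (1.53%). Leaving out 1 library gave 294 to 879 genes, the fewest without proximal GFP-high replicate 1 and the most without middle GFP-negative replicate 4, and a fit of the groups compared alone gave 177. Of these 498 genes 352 were also called in the proximal contrast, and for 186 the sign of the estimate differed between the proximal part and the mean of the other parts. At an unadjusted p below 0.05 the difference was found for 4006 genes.

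Of 30 iron, calcium and vitamin genes 7 were called (23.3%, against 2.13% of all genes), 6 of them more negative in the proximal part, and leaving out 1 library left 2 to 7. It left 2 without proximal GFP-high replicate 1 or GFP-negative replicate 2, 3 without proximal GFP-negative replicate 4, and 4 without proximal GFP-high replicate 2, 3 or 4. S100g, the calcium carrier calbindin, averaged 29.3 CPM in GFP-high and 196 CPM in GFP-negative cells of the proximal part, 1.77 and 1.72 CPM in the middle and 1.31 and 2.49 CPM in the distal part. Its proximal difference of -2.74 was the more negative one, with a difference between parts of -2.30 ± 0.62 (adjusted p = 0.0333). Fth1 and the heme exporter Flvcr1 also had more negative differences here, with -1.004 and -0.86 between parts (adjusted p = 0.000964 and 0.0172). The call of Flvcr1 was lost without proximal GFP-high replicate 1 or GFP-negative replicate 2 (adjusted p = 0.0512 and 0.0717). That of S100g was lost without proximal GFP-high replicate 1 or 2, proximal GFP-negative replicate 2 or middle GFP-high replicate 3 (adjusted p from 0.0531 to 0.0997). With all libraries kept, S100g was not called in a fit of the groups compared alone (adjusted p = 0.0519).

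Other genes had estimates of unlike sign in the parts. Foxq1, a forkhead factor, averaged 7.67 and 12.0 CPM in GFP-high and GFP-negative cells here, 6.34 and 1.15 CPM in the middle and 3.96 and 0.128 CPM in the distal part, with log2 differences of -0.65, 2.47 and 4.89 (difference -4.33 ± 0.61, adjusted p = 8.11e-06). In the proximal part alone its libraries overlapped and it was not called (adjusted p = 0.263). Bbox1, which completes carnitine synthesis, differed by -3.03 here and by -1.29 in the middle part, where it was not called. In the distal part it differed by 2.64 (difference between parts -3.71, adjusted p = 0.00152). Slc27a2, a fatty acid transporter, was lower in GFP-high cells here (-0.74) and higher in the middle (0.83) and distal part (2.44); it averaged 120.4 and 201 CPM here, and the difference was -2.37 ± 0.21 (adjusted p = 6.35e-11). Gsta4 and Abcb1a had more negative differences here, with -1.70 and -1.35 between parts (adjusted p = 0.000223 and 1.14e-05).

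In the positive direction Trpm6, a magnesium channel, was higher in proximal GFP-high cells (2.93, with 5.81 and 0.758 CPM in GFP-high and GFP-negative cells). It was also higher in GFP-high cells of the middle part (1.04, with 7.97 and 3.87 CPM) and lower in distal ones (-1.57, with 6.02 and 17.9 CPM). Its difference between parts was 3.20 ± 0.48 (adjusted p = 1.74e-05). Rdh16, a retinol dehydrogenase, differed by 1.49 here and by -0.35 in the middle part, where it was not called. In the distal part it differed by -1.62 (difference between parts 2.48, adjusted p = 1.74e-05). Hk2 was higher in GFP-high cells here by 1.68, against 0.79 in the middle and -0.07 in the distal part, with GFP-high means of 121, 126 and 117 CPM and GFP-negative means of 37.7, 73.0 and 123 CPM; the difference was 1.32 ± 0.20 (adjusted p = 1.69e-05). Against 2.13% of all genes, 3 of 31 crypt base stem cell genes (9.7%), Smoc2 among them, and 6 of 40 detoxification genes (15%) were called as different from the other parts. Leaving out 1 library gave 2 to 4 such crypt base and 6 to 8 such detoxification genes.

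**Figure D5:**
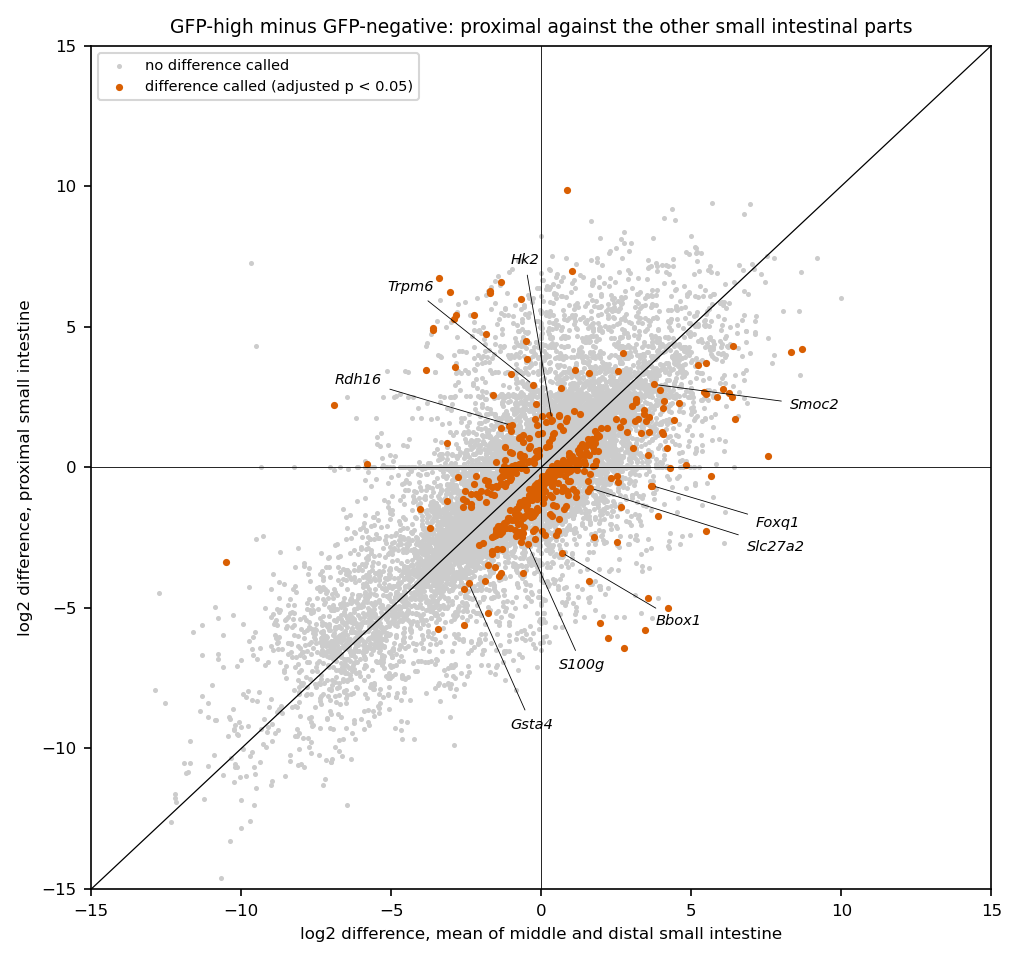
Log2 difference of GFP-high minus GFP-negative in the proximal small intestine (vertical axis) against the mean of the middle and distal parts (horizontal axis) for 23360 genes; orange points are the 498 genes whose difference between parts was called, and the line marks equality. Most genes lie along the line, and the named genes Trpm6, Hk2 and Rdh16 lie above it, Foxq1, Bbox1 and S100g below it.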

How the data were processed

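The authors deposited 1 table of read counts per gene for 60 libraries of sorted intestinal epithelial cells, in 15 groups of 4, with 55357 genes and no other normalization. Per the submitters' processing notes, STAR, featureCounts of Subread and edgeR were used with the mm10 genome; their settings, including strandedness and the treatment of reads shared between genes, are not given in the sources used here. Samples were grouped by their titles.

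From the deposited counts, genes with enough counts by edgeR's filter (23360) were scaled by TMM and fitted with edgeR 4.0.16 (R 4.3.3) by its quasi-likelihood test over all 15 groups, with Benjamini-Hochberg adjustment over all genes tested. The fit had 45 residual and 5.43 prior degrees of freedom. GFP-high was compared with GFP-negative in the proximal part, and this difference with the mean of the same differences in the middle and distal parts. The script was tested on simulated data. A single gene's CPM was compared between libraries only, not with other genes, since CPM is not per length. At the observed depth 3 counts in a library are about 0.045 CPM, which covers counting error only. Library scaling factors were 1.03 to 1.05 in GFP-high and 0.78 to 0.91 in GFP-negative libraries.

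The deposited table gives each library a batch number, which equals its replicate number in 60 of 60 libraries. What the batch stands for, and whether libraries of the same number share an animal, is not stated. Replicate 1 of distal colon GFP-high had 31700 Xist and 3386 Ddx3y counts, and replicate 1 of proximal small intestine GFP-high had 75873 and 0. The reported p-values come from group means and do not use the number. Residuals of libraries with the same number correlated at a mean of 0.194 (0.011 to 0.353, above 0.1 for 3 of 4 numbers), against -0.064 for different numbers. The replicate block is an alternative and is given where it changed a call.

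The gene lists, the motifs and the members named were chosen with earlier results of these data known. Named genes are a selection of the 15 protein-coding genes per direction with the largest differences among called genes of at least 10 CPM without overlap, the 10 per direction with the largest called difference between parts, core members of the lists, up to 3 further members per list with the smallest p, and members against the direction of their list. Epcam and Krt8 are identity markers, and Tet2, Acot1 and Cpa3 were named after their values were seen. Alternatives were DESeq2 1.42.0 and its size factors, no count filter, the replicate block, a fit of the groups compared alone, edgeR's newer quasi-likelihood method, a fold of 2 in addition, and leaving out each library.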

Additional observations from a re-analysis of the deposited data

Results flagged for a closer look

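The log2 difference of GFP-high minus GFP-negative cells differed between the proximal part and the mean of the middle and distal parts by edgeR's quasi-likelihood test for the genes named above for that contrast. It was more negative in the proximal part for Foxq1 (-4.33), Bbox1 (-3.71), Slc27a2 (-2.37), S100g (-2.30), Gsta4 (-1.70), Abcb1a (-1.35), Fth1 (-1.004), Flvcr1 (-0.86) and Smoc2 (-0.82). It was more positive for Trpm6 (3.20), Rdh16 (2.48) and Hk2 (1.32). Genes named above mainly for the proximal contrast also had called differences between parts. Among them were Lyz1 (-1.78), Mgll (1.78), Id1 (0.98), Car12 (0.86) and Hnf4a (0.53), with adjusted p from 0.0194 to 0.0469. Whether these calls hold under the alternatives was not checked.

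Single libraries stood apart from the other 3 of their group, by Dixon's 95% critical value for 4 samples, in 27 cases. These come from 368 groups of named genes and the marker sums; chance gives about 1 in 20 groups. GFP-high replicate 1 stood apart for Cd320 (32.4 CPM, nearest 25.2), Cdkn2b (3.81 CPM, nearest 6.88), Fzd7 (110.5 CPM, nearest 93.7) and Htr4 (23.2 CPM, nearest 15.8). The same library stood apart for Itgae (5.35 CPM, nearest 2.94), Kcnq1 (389 CPM, nearest 325), Lgr5 (405 CPM, nearest 283) and Mcpt1 (0.230 CPM, nearest 0.0286). The same library stood apart for Nkg7 (0.820 CPM, nearest 0.238), Reg3g (51.3 CPM, nearest 105) and Slc1a5 (227 CPM, nearest 187). GFP-high replicate 2 stood apart for Aurkb (74.8 CPM, nearest 91.4), Car12 (81.9 CPM, nearest 105), Npy1r (0.0286 CPM, nearest 0) and Vim (5.14 CPM, nearest 3.58). For Npy1r the other GFP-high libraries were at 0, so any count would stand apart, and its value is under the floor of 3 counts. GFP-high replicate 3 stood apart for Il33 (2.13 CPM, nearest 1.34). GFP-negative replicate 1 stood apart for Fstl1 (1.71 CPM, nearest 0.726), Mcpt1 (78.3 CPM, nearest 15.5) and Sst (225 CPM, nearest 59.9). GFP-negative replicate 2 stood apart for Cdkn1a (207 CPM, nearest 139.7) and the acinar and Brunner gland marker sum (339 CPM, nearest 32.0). GFP-negative replicate 3 stood apart for Acot1 (68.9 CPM, nearest 17.0), Cbs (0 CPM, nearest 0.432), Gsta4 (128 CPM, nearest 174) and Mgll (4.83 CPM, nearest 2.47). The same library stood apart for Notch1 (28.9 CPM, nearest 21.3) and Slc1a2 (1.41 CPM, nearest 0.510). The part of these libraries in each call is given with the result where leaving them out ended it.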

How the results depend on the processing

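The proximal contrast called 11013 genes, and between 10164 and 10808 when 1 of its 8 libraries was left out (4856 to 5162 higher, 5243 to 5646 lower). With the replicate number as a block it called 11109 genes, 10828 of them shared with the reported 11013. A fit of the groups compared alone called 9319 genes, 8988 of them shared, and a fit without the count filter called 10302. Requiring a fold of 2 in addition left 6805 genes (2992 higher, 3813 lower), by construction. Among called list members it left, for example, 14 of 50 higher cytosolic ribosomal protein genes. It left 4 of 17 lower cholesterol synthesis genes and 1 of 31 lower oxidative phosphorylation genes. DESeq2's size factors moved the median log2 difference of all genes by -0.11 and called 4670 genes higher and 6386 lower.

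The comparison with the middle and distal parts was less stable. Its 498 calls became 324 without the count filter (227 negative), 177 in a fit of the groups compared alone (58 positive, 119 negative), 966 with the DESeq2 Wald test (284 positive, 682 negative), 652 with the replicate block and 234 with a fold of 2 in addition (82 positive, 152 negative). Leaving out 1 library gave 294 to 879 (70 to 267 positive, 215 to 639 negative). The count fell to 294 without proximal GFP-high replicate 1 and to 295 without proximal GFP-negative replicate 4. It was 793 without proximal GFP-negative replicate 2, 791 without distal and 879 without middle GFP-negative replicate 4. The cause was not tested. No named gene changed sign under any alternative run. Among the genes named here the block changed the call of H2-Ab1 alone, in the proximal contrast. The calls between parts of Lyz1, Mgll, Id1, Car12 and Hnf4a were not checked under the block. Genes under 3 counts per library on both sides are below what this depth resolves.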
